A study of Mus musculus with 3 samples.

Results

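Mafa, Neurod1, Rfx6, Glis3, Insm1 and Myt1 are 6 of the 22359 protein-coding genes with an annotated promoter, chosen by name as transcription factors of the beta cell. Their chromatin was described by every ATAC-seq peak that overlapped the gene body or the 50 kb on each side of it. These windows held 84 of the 60898 peaks of the WT list, 61 of the 150354 peaks called 1 week after Taf4 inactivation and 103 of the 151725 peaks called after 5 weeks. ATAC-seq uses a transposase that cuts exposed DNA and tags it for sequencing, so that reads pile up over open chromatin. It was performed on cells dissociated with Accutase from islets of Langerhans of C5LBl6 mice (the strain name as labelled), with 1 library each from wild type mice and from Taf4 KO mice at 1 week and 5 weeks. In the study's mouse model, adult animals of both genotypes carried an Ins1-driven, tamoxifen-inducible Cre recombinase and received tamoxifen, and the Taf4 KO animals also carried floxed Taf4 alleles. Whether the WT library came from such control animals was not given in the sources used here. Taf4 was therefore removed from cells that express Ins1, and the other islet cells kept it. The number of animals behind each library was not given in the sources used here, and the loss of Taf4 itself was not checked from the peaks. With 1 library per group no p-value was computed, and each difference given is one between libraries.

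Taf4 is a subunit of TFIID, the general transcription factor that binds core promoters and helps to recruit RNA polymerase II. The 6 factors act at different steps of endocrine development. Myt1, a zinc finger protein, and Insm1, a zinc finger repressor, accompany the first steps from endocrine progenitors. Rfx6, a winged-helix factor, and Neurod1, a basic helix-loop-helix (bHLH) factor, are needed for islet cell formation and stay on in adult beta cells. Glis3, a Krüppel-like zinc finger factor, and Mafa, a basic leucine zipper factor, bind the insulin promoter, and Mafa marks the mature beta cell. Genes that specify a cell type often sit among many accessible distal elements, and the question was which promoters and distal elements of these 6 loci were called in each library.

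The libraries differed in ways that touch every count. Both Taf4 KO lists were longer than the WT list, by 2.47 times at 1 week and 2.49 times at 5 weeks. The background floor, the 1st percentile of the local read backgrounds that the caller's own values imply, served as a measure of depth. It was 1.77 times the WT value at 1 week and 2.57 times at 5 weeks. Over the gene windows with a WT peak, split into 5 GC groups of similar size, peaks at 1 week depended on base composition. They numbered 3.19 times the WT count in the group of lowest GC and 0.508 times in that of highest GC. At 5 weeks the same ratios were 2.55 and 1.12. Of 9 beta cell markers, 9 had a promoter peak in WT and 8 in each Taf4 KO list, Slc2a2 being the one without. Alpha cell markers were called in 5 to 6 of 6, delta cell markers in 2 to 4 of 4, and the Gcg and Sst promoters were called after Taf4 inactivation at both times but not in WT. At 1 week and 5 weeks the Gcg peak had a -log10 q of 4.96 and 7.14, at percentiles 83.9 and 78.9 of its list. The Sst peak had 1.41 and 1.33, at percentiles 15.5 and 10.7, near the lowest values called. Acinar, duct, endothelial and immune lists had 0 to 3 calls each, and 1 of 3 muscle and epidermis genes was called in each Taf4 KO list and 0 in WT. In islet cells profiled in bulk, fewer cells of a type and less accessible DNA per cell cannot be told apart, and the part of these markers in the results below was not tested.

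The regions that stood highest outside promoters are shown as sequence, since most of the accessible chromatin of these loci was distal. For Neurod1, Rfx6, Glis3, Insm1 and Myt1, the region called in all 3 lists with the highest -log10 q in WT is given as the 300 bases at the centre of the stretch covered by all 3 peaks. Sequences are from mm9, written 5′ to 3′ on the strand of the gene, and none overlaps an annotated exon. Capitals mark matches, on either strand, to 1 of 6 short motifs searched: CATCTG (an E-box of bHLH factors), TAATTA (homeodomain), TGTTTAC (forkhead), TGCTGA (Maf site core), GTTGCC (Rfx site core) and TGACTCA (AP-1).
Neurod1, downstream, intron of Cerkl, chr2:79250397-79250696, minus strand: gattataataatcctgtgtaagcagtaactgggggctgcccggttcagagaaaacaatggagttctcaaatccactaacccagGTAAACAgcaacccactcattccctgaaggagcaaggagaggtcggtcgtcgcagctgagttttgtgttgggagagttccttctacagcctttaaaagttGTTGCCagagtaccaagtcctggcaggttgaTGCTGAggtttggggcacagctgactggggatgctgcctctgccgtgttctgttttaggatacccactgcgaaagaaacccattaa
Rfx6, intron, chr10:51447790-51448089, plus strand: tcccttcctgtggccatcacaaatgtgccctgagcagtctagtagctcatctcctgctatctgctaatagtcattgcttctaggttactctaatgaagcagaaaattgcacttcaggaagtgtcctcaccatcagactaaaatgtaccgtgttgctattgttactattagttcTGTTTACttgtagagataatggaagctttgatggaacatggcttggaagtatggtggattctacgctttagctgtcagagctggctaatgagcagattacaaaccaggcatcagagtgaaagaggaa
Glis3, intron, chr19:28491159-28491458, minus strand: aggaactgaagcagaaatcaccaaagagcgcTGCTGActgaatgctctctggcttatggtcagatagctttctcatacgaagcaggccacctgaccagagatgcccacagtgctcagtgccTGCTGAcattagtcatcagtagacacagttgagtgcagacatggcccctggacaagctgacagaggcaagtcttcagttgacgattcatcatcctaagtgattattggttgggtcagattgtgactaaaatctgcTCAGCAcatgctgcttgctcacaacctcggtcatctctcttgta
Insm1, upstream, intron of 4930529M08Rik, chr2:146030368-146030667, plus strand: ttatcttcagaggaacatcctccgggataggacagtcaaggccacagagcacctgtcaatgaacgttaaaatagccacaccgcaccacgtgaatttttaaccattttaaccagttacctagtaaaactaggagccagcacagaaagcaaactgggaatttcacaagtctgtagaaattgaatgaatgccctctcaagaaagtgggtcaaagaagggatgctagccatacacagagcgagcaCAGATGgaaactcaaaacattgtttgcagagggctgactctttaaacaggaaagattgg
Myt1, upstream, between genes, chr2:181493781-181494080, plus strand: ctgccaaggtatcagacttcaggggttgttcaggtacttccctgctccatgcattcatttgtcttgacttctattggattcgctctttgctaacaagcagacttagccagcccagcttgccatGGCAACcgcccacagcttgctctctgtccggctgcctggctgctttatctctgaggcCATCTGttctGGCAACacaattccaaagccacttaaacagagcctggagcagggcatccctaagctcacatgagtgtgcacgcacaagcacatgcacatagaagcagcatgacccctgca
The Neurod1 and Rfx6 regions each held 1 forkhead match. Neurod1 also held a Maf site core and an Rfx site core, Glis3 held 3 Maf site cores, Insm1 an E-box, and Myt1 an E-box and 2 Rfx site cores. A match is a description of the letters and does not show that a factor was bound.

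Taken as 1 set, the 6 windows held more peaks per length than the median gene window in each library. Per 100 kb they held 7.32 WT peaks, 5.32 peaks from 1 week and 8.98 from 5 weeks, against medians of 3.89, 4.09 and 5.97 over all genes. Single windows ranged from 4.85 (Insm1) to 12.9 (Mafa) in WT, from 2.43 (Myt1, under the median of all genes) to 8.51 (Rfx6) at 1 week and from 7.29 (Glis3) to 15.8 (Mafa) at 5 weeks. Relative to WT, the members had 0.726 times as many peaks at 1 week and 1.23 times as many at 5 weeks. All gene windows with a WT peak together had 1.05 and 1.44 times as many, and windows without one were left out of this ratio. The longer Taf4 KO lists thus did not bring more peaks to these loci at 1 week.

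**Figure D1:**
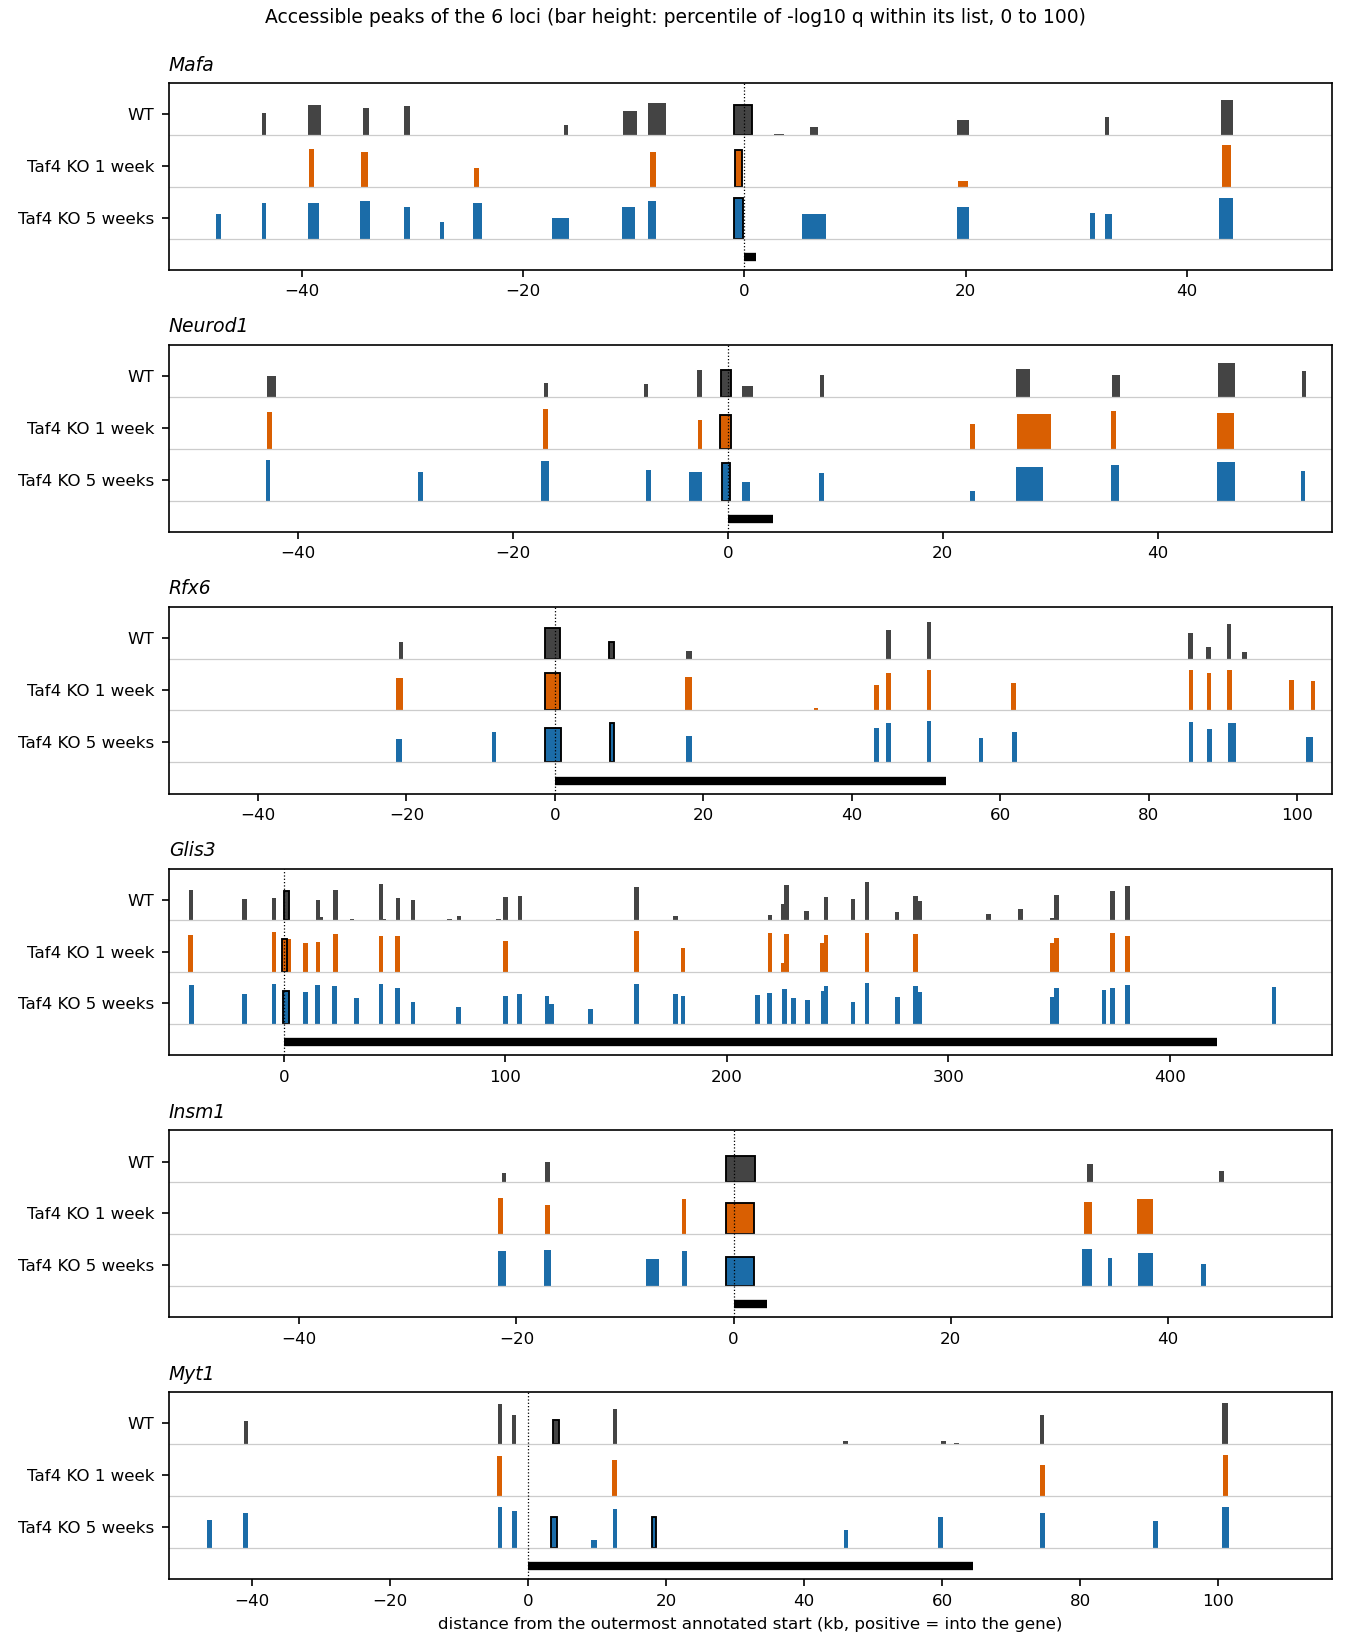
ATAC-seq peaks of the 6 loci in each library, by distance from the outermost annotated start in kb (positive values run into the gene). Bar height is the percentile of a peak's -log10 q within its own list, bars outlined in black are promoter peaks, the black line is the gene body, and very narrow peaks are drawn at a minimum width. The 3 libraries have 84, 61 and 103 peaks (WT, 1 week, 5 weeks), and many positions are occupied in more than 1 library.

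Gene by gene, Mafa had 13 peaks in WT, 7 at 1 week and 16 at 5 weeks. Neurod1 had 11, 8 and 13 peaks in the same order, and Glis3, by far the longest gene, had 35, 23 and 38. Myt1 had 10, 4 and 13. These 4 genes shared 1 order, lowest at 1 week and highest at 5 weeks. Rfx6 had 10, 13 and 14 peaks and Insm1 had 5, 6 and 9, so both were lowest in WT. Thus 4 of 6 members had fewer peaks at 1 week than in WT, where 58.2% of the 19372 gene windows with a WT peak did. All 6 had more at 5 weeks (62.0% of windows did), and 4 of 6 had both fewer at 1 week and more at 5 weeks (28.2% of windows). Both comparisons share the WT library. The excess at 5 weeks was smaller or reversed once the lists were matched. With lists of equal number it came to 2 peaks over the 6 windows, with differences of -1 at Mafa and -3 at Glis3, and scaled to the WT background it was -6. When the -log10 q had to reach 5, WT and 1 week had 32 each and 5 weeks had 65, and Glis3 had 3 more at 1 week than in WT.

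The GC content of the 1 Mb around each gene was set beside these counts. Mafa lay in the GC-richest group (48.8% GC), in which 95.3% of windows had fewer peaks at 1 week. Myt1 (44.5% GC) lay in the middle group, in which 63.7% of windows had fewer. Glis3 (43.3%) and Insm1 (43.2%) shared the next group, in which 38.9% had fewer, and they went opposite ways. Neurod1 (39.6%) and Rfx6 (39.3%) were in the GC-poorest group, in which 10.2% of windows had fewer peaks at 1 week. Neurod1 was among that minority, with 8 peaks against 11.

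**Figure D2:**
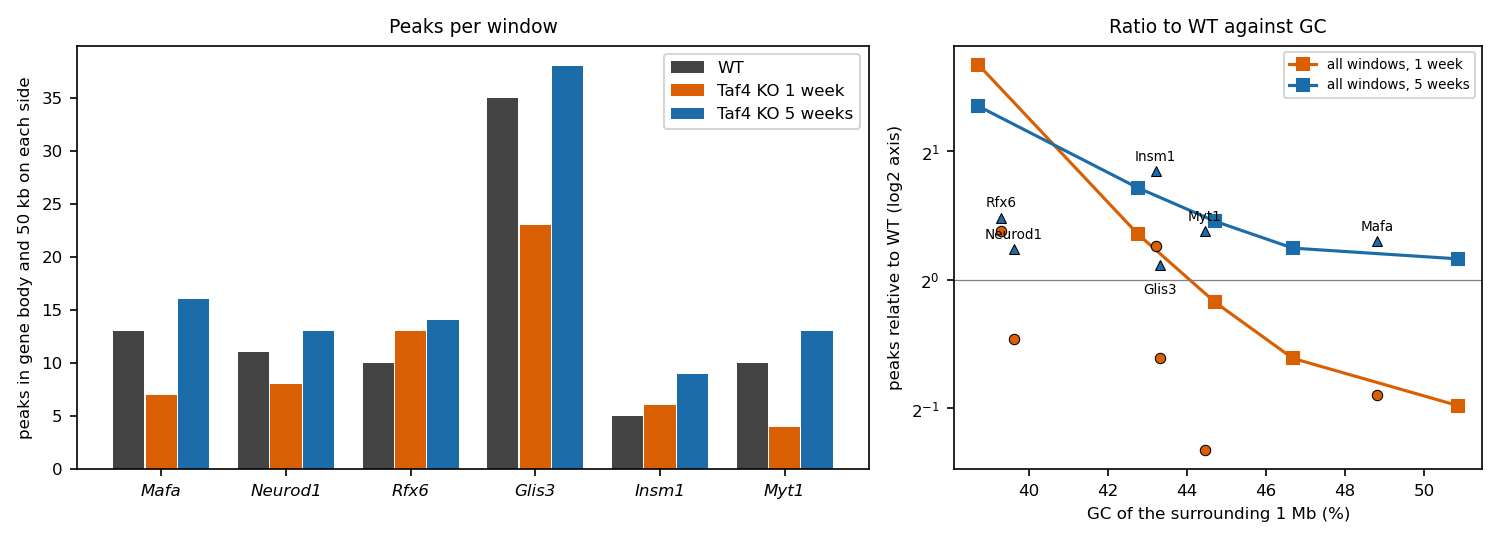
Left, peaks per gene window in the 3 libraries. Right, the ratio to WT on a log2 axis against the GC content of the surrounding 1 Mb. Squares and lines give all gene windows with a WT peak in 5 GC groups, placed at the middle of each group's range. The circles (1 week) and triangles (5 weeks) give the 6 genes. Circles lie below 1 for Mafa, Neurod1, Glis3 and Myt1, while all 6 triangles lie above 1.

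The promoter was called for 6 of 6 members in WT, for 5 at 1 week and for 6 at 5 weeks, Myt1 being the exception at 1 week. When the -log10 q had to reach 5, member calls were 5, 2 and 5 in the order WT, 1 week, 5 weeks. Those of 22 other endocrine factors were then 13, 10 and 15. The share of all genes that reach this limit was not computed. Whether the lower member count at 1 week is particular to the members is therefore not known. The shares that follow are for the lists as called, without this limit. Over all protein-coding genes a promoter peak was called for 59.0% in WT, 55.9% at 1 week and 65.6% at 5 weeks. A peak counted for the promoter if it touched the stretch from 1000 bp before to 100 bp after a protein-coding transcript's start, and where there were several the one with the highest -log10 q was used. Its fold is the caller's enrichment over the local background, averaged over the peak, and its percentile is the rank of its -log10 q within its own list, from 0 to 100. Since the lists differ in length and depth, each percentile is set beside the same measure over all genes.

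The Mafa promoter peak was narrower in both Taf4 KO lists than in WT. Mafa (ENSMUSG00000047591, chr15:75577273-75578352, minus strand) is annotated as a single exon that starts with the coding sequence. In WT its promoter peak was 1681 bp wide (chr15:75577631-75579311), running from well upstream into the exon, with a fold of 2.76 at percentile 71.2. At 1 week the peak was 604 bp wide (chr15:75578581-75579184), with a fold of 3.43 at percentile 87.9. At 5 weeks it was 777 bp wide (chr15:75578524-75579300), with a fold of 4.45 at percentile 97.9. Both Taf4 KO peaks lay upstream of the annotated start and, unlike the WT peak, did not cover its first base. Since this annotated start is that of the coding sequence, it does not show where the peaks lay relative to the transcription start. The width was 0.359 and 0.462 times the WT value, and the fold was 1.25 and 1.62 times. A fold averaged over a narrower peak is not the same quantity as one averaged over a wide peak, and the part of width in the fold was not tested.

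Neurod1 (ENSMUSG00000034701, chr2:79292678-79296908, minus strand) kept a promoter peak over both of its annotated starts in all 3 lists. The peak was 900 bp wide in WT, with a fold of 2.85 at percentile 65.4. It was 1028 bp wide at 1 week, with a fold of 3.0 at percentile 80.3, and 703 bp at 5 weeks, with a fold of 3.55 at percentile 89.6. The peak therefore ranked higher within both Taf4 KO lists than within the WT list, while its fold was 1.05 and 1.24 times the WT value.

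Rfx6 (ENSMUSG00000019900, chr10:51397562-51450235, plus strand) has 3 annotated starts, and the libraries differed at the third. A broad peak over the first and second starts was 2044 bp wide in WT, 2039 bp at 1 week and 2178 bp at 5 weeks, with folds of 3.78, 3.38 and 3.33. Its percentiles were 74.8, 90.4 and 83.8. A separate, narrow peak covered the third start. In WT it was 363 bp wide with a fold of 3.16 at percentile 40.0, no peak was called there at 1 week, and at 5 weeks it was 392 bp wide with a fold of 4.70 at percentile 94.4. At 5 weeks it ranked above the peak over the first start and so became the gene's strongest promoter peak. The 294 bases of the WT peak before this start are shown because the inner start carried the difference; they held none of the 6 motifs.
Rfx6, before the third annotated start, chr10:51405030-51405323, plus strand: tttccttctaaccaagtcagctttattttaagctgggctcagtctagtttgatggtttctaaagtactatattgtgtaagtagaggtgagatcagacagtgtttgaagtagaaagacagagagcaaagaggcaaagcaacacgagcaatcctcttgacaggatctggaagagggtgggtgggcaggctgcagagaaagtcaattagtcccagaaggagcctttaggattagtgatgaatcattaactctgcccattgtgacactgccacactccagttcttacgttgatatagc

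Glis3 (ENSMUSG00000052942, chr19:28333341-28754567, minus strand) had 1 broad promoter peak in WT, 2375 bp wide, which covered the outermost start and a second start inside the gene. At 5 weeks the peak was 2559 bp wide. At 1 week 2 separate peaks lay in the same stretch, 860 bp and 229 bp wide, and neither covered the second start. The folds of the strongest peak were 3.02, 2.89 and 2.77 in WT, 1 week and 5 weeks, at percentiles 71.6, 80.7 and 81.1. A further annotated start had no peak in any list.

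Insm1 (ENSMUSG00000068154, chr2:146047657-146050752, plus strand) had a promoter peak of nearly the same width in each list. It was 2669, 2623 and 2642 bp wide in WT, 1 week and 5 weeks and reached into the gene in each. The folds were 2.41, 2.62 and 2.20, the lowest of the 6 in WT, and the percentiles 63.7, 74.9 and 69.7. Its width was 0.983 times the WT value at 1 week and 0.990 times at 5 weeks.

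Myt1 (ENSMUSG00000010505, chr2:181498037-181562502, plus strand) was the only member without a promoter peak at 1 week. Of its 6 annotated starts, the outermost had no peak in any list. A pair of neighbouring inner starts was covered by a WT peak of 958 bp with a fold of 2.88 at percentile 58.6, and at 5 weeks by a peak of 797 bp with a fold of 2.75 at percentile 75.3. At 5 weeks a second promoter peak of 291 bp (chr2:181516175-181516465) lay upstream of a further inner start, with a fold of 2.93 at percentile 73.9, and no peak was called there in WT or at 1 week. The WT peak of Myt1 had the lowest -log10 q of the 6 promoters, 4.74.

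Set against all genes called in WT and at the time compared, the members lay above the median of all genes in both rank and fold ratio. At 1 week the -log10 q itself was lower than in WT for 5 of 5 members. In WT and at 1 week it was 7.12 and 6.20 for Mafa, 5.83 and 4.16 for Neurod1, and 8.08 and 7.28 for Rfx6. It was 7.22 and 4.23 for Glis3 and 5.52 and 3.38 for Insm1. At 5 weeks it was lower than in WT only for Insm1, at 4.48. The share of all genes with a lower -log10 q than in WT was not computed at either time. Whether these counts differ from those of other genes is therefore not known. The percentile of the -log10 q within its own list was higher than in WT for 5 of 5 members at 1 week and 6 of 6 at 5 weeks. Over all genes it was higher for 59.9% at 1 week and 80.0% at 5 weeks, with median differences of 2.01 and 5.13 points, against 9.04 to 16.7 and 6.0 to 26.7 points for the members. In WT the members stood at 58.6 (Myt1) to 74.8 (Rfx6), while a promoter already high in WT has little room to rise. All genes were not matched to the members by WT percentile, and the part of the starting rank was not tested. Only Mafa, at 5 weeks, passed a fold ratio of 1.5 over WT, which 0.239% of genes did at 5 weeks and 0.399% at 1 week. Over all genes the median fold ratios were 0.813 and 0.903 at the earlier and later time, and the members ranged from 0.894 to 1.25 and from 0.911 to 1.62. Widths at or below 1/1.5 of WT were found for Mafa and Glis3 at 1 week, where 27.9% of genes had one, and for Mafa and Rfx6 at 5 weeks, where 5.12% had one. All Rfx6 values at 5 weeks come from the switch to the narrow peak at the third start. With the outermost start only, its fold ratio at 5 weeks was 0.881, below the median of all genes, and its percentile difference 9.02 points.

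**Figure D3:**
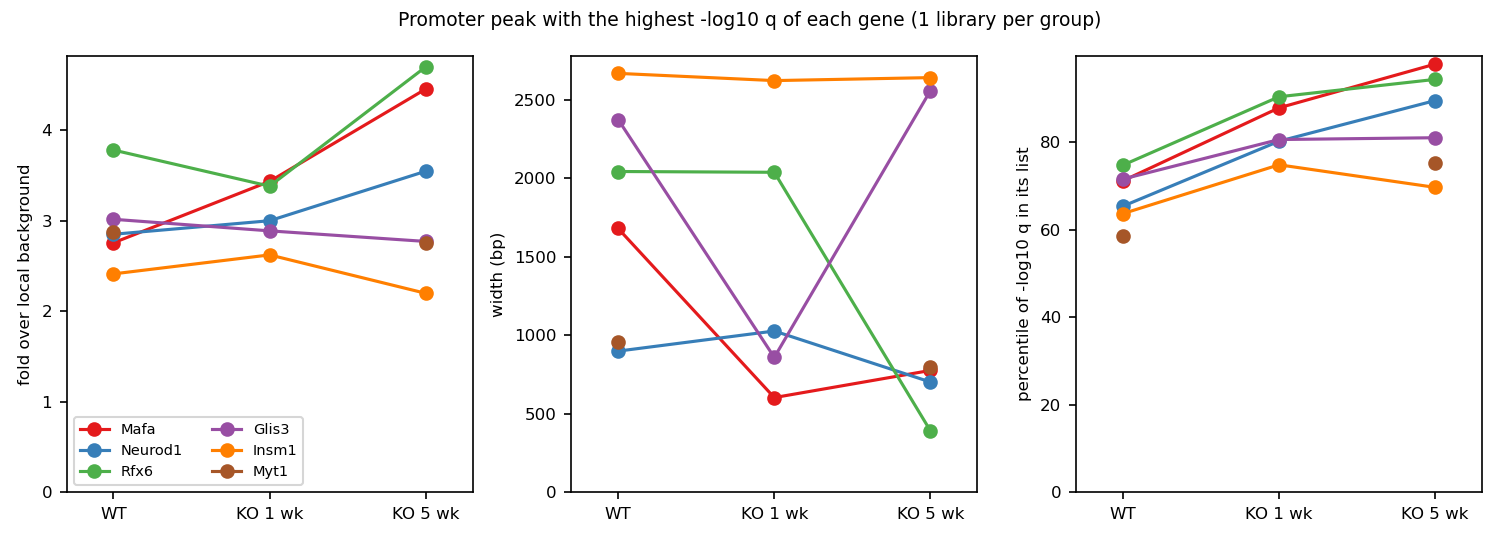
Strongest promoter peak of each gene in the 3 libraries, by fold over local background (left), width in bp (middle) and percentile of -log10 q within its list (right). Each point is 1 library, lines join the points of a gene, and Myt1 has no point at 1 week. Mafa and Neurod1 have their highest fold and percentile at 5 weeks, and the Rfx6 width of 392 bp at 5 weeks belongs to the third annotated start.

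For each member, the protein-coding gene with the most similar promoter percentiles over the 3 libraries was sought. The nearest were Amigo3 for Mafa, Tmem132a for Neurod1, Elovl4 for Rfx6, Eif4e for Glis3 and Hivep1 for Insm1, with largest differences of 2.08, 0.326, 0.752, 1.35 and 1.96 percentile points. Myt1, not called in all 3 lists, was left out of this search.

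Among the 84 WT peaks, 48 were overlapped by a peak at 1 week (57.1%, Wilson 95% interval 46.5 to 67.2) and 72 at 5 weeks (85.7%, 76.7 to 91.6). Over the WT peaks of all gene windows these shares were 61.4% and 80.0%, which lie inside both intervals. The intervals cover the counting of peaks only, as if neighbouring peaks were independent, and not differences between animals. WT peaks found again at 1 week had a median WT percentile of 65.2, and those not found one of 27.0. At 5 weeks the medians were 57.3 and 6.51. The peaks missing at 5 weeks stood at percentile 28.0 or lower in WT, whereas those missing at 1 week reached 69.7, at Myt1. Neurod1 had all of its 11 WT peaks again at 5 weeks and 7 at 1 week. Mafa had 12 and 6 of 13, Rfx6 9 and 8 of 10, Glis3 27 and 19 of 35, Insm1 4 and 4 of 5, and Myt1 9 and 4 of 10.

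Merging the 3 lists gave 104 distal regions, outside all promoters. Of these, 38 (36.5%, Wilson 95% interval 27.9 to 46.1) were called in all 3 lists, against 16.3% of the distal regions of all gene windows. A further 22 were called in WT and again at 5 weeks, with no peak at 1 week (21.2%, against 6.88%), and 0 in WT and at 1 week only (0.51%). WT alone had 12 (11.5%, against 7.65%), both Taf4 KO lists together 10 (9.62%, against 15.9%), 5 weeks alone 20 (19.2%, against 28.7%) and 1 week alone 2 (1.92%, against 24.1%). Distal regions of the 6 loci were thus mostly those already called in WT. The pattern of WT with 5 weeks but not 1 week made up 6 of 15 regions at Mafa, 4 of 10 at Myt1, 4 of 11 at Neurod1 and 8 of 45 at Glis3, and was found 0 times at Rfx6 and Insm1.

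Distal peaks of the members ranked higher in the Taf4 KO lists than distal peaks of gene windows in general. The members' median percentiles in the 3 lists (WT, 1 week, 5 weeks) were 50.4, 85.2 and 76.3, against 41.6, 53.7 and 54.3. Median folds were 2.98, 3.25 and 2.92, against 3.01, 2.43 and 2.29, and median widths were 426, 434.5 and 509.5 bp, against 424, 483 and 496 bp. In the 38 regions called in all lists, the percentile was higher than in WT in 36 at 1 week and 37 at 5 weeks. Shared regions of all gene windows did the same in 87.5% and 94.0%, and the median differences were alike, 20.7 and 24.8 points for the members and 21.9 and 22.3 points for all. Their median fold ratios to WT were 0.970 and 1.08, against 0.934 and 0.965, and their median width ratio 0.984 and 1.32, against 0.973 and 1.18.

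**Figure D4:**
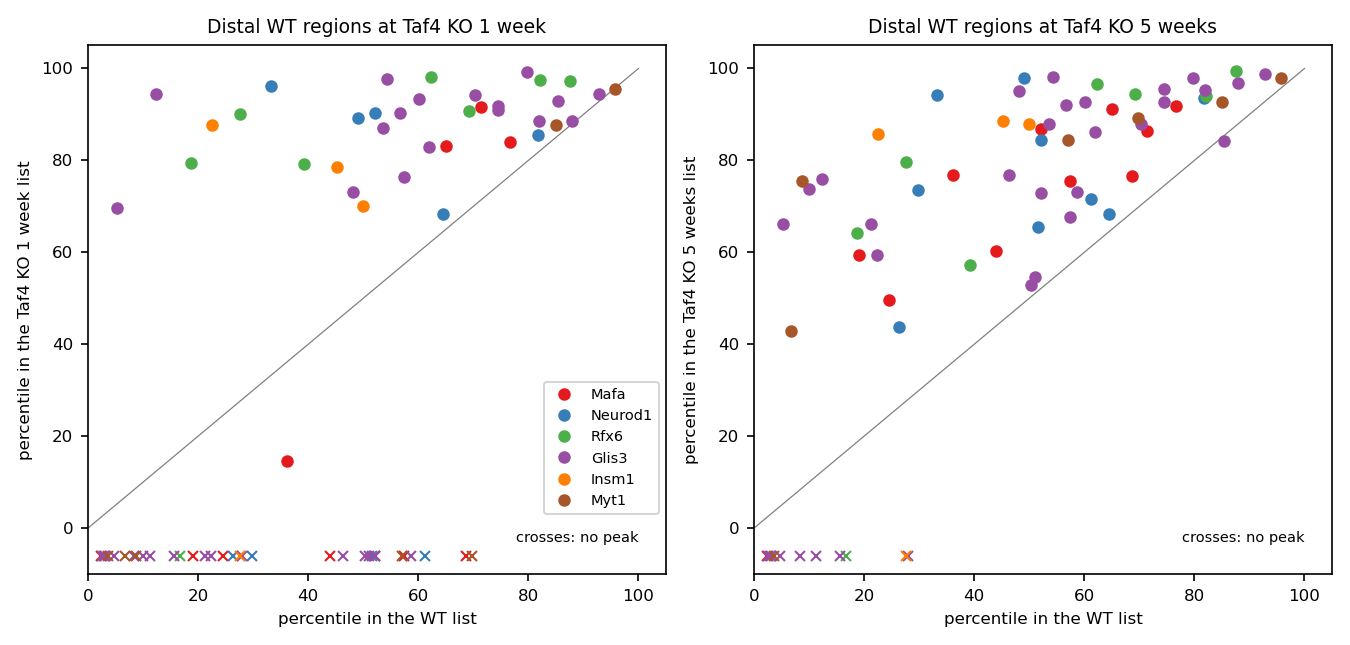
Each WT distal region of the 6 loci, by its percentile in the WT list and in the 1 week (left) or 5 weeks (right) list. Points above the diagonal rank higher in the Taf4 KO list, and crosses at the bottom are WT regions without a peak in that list. Of the 38 regions called in all 3 lists, 36 lie above the diagonal at 1 week and 37 at 5 weeks.

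The shared regions whose sequences are given above stood at percentile 87.5 or higher in every list for Myt1, Glis3 and Rfx6, and lower in WT for Neurod1 and Insm1. Distances run from the middle of a region to the outermost start of the gene, with negative values upstream. At Myt1 the region at -4070 bp had folds of 4.87, 4.41 and 4.45 (WT, 1 week, 5 weeks), at percentiles 95.7, 95.5 and 97.9. At Glis3 the intronic region at 263324 bp had folds of 6.41, 4.24 and 5.87, at percentiles 92.8, 94.3 and 98.8. At Rfx6 the intronic region at 50373 bp had folds of 6.07, 4.90 and 6.54, at percentiles 87.5, 97.3 and 99.5. At Neurod1 the region at 46380 bp, within an intron of Cerkl, had folds of 3.79, 3.26 and 3.93, at percentiles 81.7, 85.5 and 93.6. At Insm1 the region at -17110 bp had folds of 3.38, 2.71 and 3.89 and stood in the middle of the WT list, at percentile 70.0 at 1 week and at 87.9 at 5 weeks. The Neurod1 and Insm1 regions stood lowest in WT and highest at 5 weeks in percentile, and all 5 regions had their lowest fold at 1 week. These 5 were picked for their high -log10 q in WT, which favours a lower fold in the other lists. Of all 38 shared distal regions, 18 had a fold at 1 week equal to or above that in WT.

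Some distal regions had very different ranks in the libraries. Upstream of Neurod1, the region at -16992 bp had folds of 3.01, 4.57 and 4.56, at percentiles 33.2, 96.3 and 94.3. Further upstream, the region at -42485 bp had folds of 3.37, 3.54 and 5.52, at percentiles 49.1, 89.1 and 97.9. Both were named after their values were seen. Of the 10 regions called in both Taf4 KO lists and not in WT, 3 lay at Rfx6, 3 at Glis3, 2 at Insm1, 1 at Mafa and 1 at Neurod1. The stronger at Insm1, at -4545 bp between that gene and its upstream neighbour, had folds of 3.24 and 3.01 at percentiles 84.8 and 85.1, and the other at Insm1 stood at 84.2 and 78.9. Of the rest, the region with the highest -log10 q in either list stood at percentiles 45.8 and 87.1 for Mafa, 59.2 and 22.9 for Neurod1, 61.7 and 83.1 for Rfx6, and 71.7 and 81.1 for Glis3.

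Both of these are shown, the Neurod1 region for its difference in rank and the Insm1 region as one called only after Taf4 inactivation; they held none of the 6 motifs.
Neurod1, upstream, between genes, chr2:79313683-79313982, minus strand: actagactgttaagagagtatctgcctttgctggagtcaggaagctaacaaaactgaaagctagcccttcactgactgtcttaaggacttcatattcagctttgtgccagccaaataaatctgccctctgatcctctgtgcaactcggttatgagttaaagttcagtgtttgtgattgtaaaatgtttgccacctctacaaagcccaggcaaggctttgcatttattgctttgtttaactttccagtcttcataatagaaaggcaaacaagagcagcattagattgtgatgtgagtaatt
Insm1, upstream, between genes, chr2:146042951-146043250, plus strand: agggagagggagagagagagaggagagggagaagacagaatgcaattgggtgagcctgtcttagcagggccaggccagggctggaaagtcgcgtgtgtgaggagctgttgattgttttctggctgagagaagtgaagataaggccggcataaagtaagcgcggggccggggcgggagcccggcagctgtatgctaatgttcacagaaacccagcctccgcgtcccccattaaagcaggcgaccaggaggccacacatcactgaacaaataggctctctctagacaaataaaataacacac
The 12 regions called only in WT were all weak. Their highest percentile was 28.0, at Glis3, which held 8 of them, followed by 27.7 at Insm1, 16.8 at Rfx6, 3.66 at Myt1 and 2.29 at Mafa, and Neurod1 had 0. Every WT distal region of the 6 loci above percentile 28.0 thus had a peak in at least 1 Taf4 KO list.

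The motifs were counted in the central 300 bases of the 38 shared distal regions and of 20070 shared distal regions of all gene windows, on both strands. None of the 6 words contains another, though the Maf site core and the AP-1 word can share the letters TGA. CATCTG was found in 13 of 38 (34.2%, against 31.9% of all), TGTTTAC in 5 (13.2%, against 10.4%) and GTTGCC in 5 (13.2%, against 14.1%). TGACTCA was found in 3 (7.89%, against 8.86%) and TGCTGA in 8 (21.1%, against 30.5%). TAATTA, the core that many homeodomain factors bind, was found in 11 (28.9%, against 9.53%). Most of these lay at Glis3 and Rfx6, which held 17 and 7 of the 38 regions, and none lay at Neurod1 or Myt1. The member regions had a median GC content of 46.5% and all regions one of 49.7%, and the part of base composition in these shares was not tested. The strongest WT region with TAATTA, at Glis3, is shown with its match in capitals beside an E-box.
Glis3, intron, second region, chr19:28527614-28527913, minus strand: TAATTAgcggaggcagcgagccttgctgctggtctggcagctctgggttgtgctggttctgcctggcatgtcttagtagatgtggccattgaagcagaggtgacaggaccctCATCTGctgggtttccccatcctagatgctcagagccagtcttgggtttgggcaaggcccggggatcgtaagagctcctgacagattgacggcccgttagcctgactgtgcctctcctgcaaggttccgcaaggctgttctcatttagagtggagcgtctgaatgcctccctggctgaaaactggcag
In WT this region stood at percentile 85.3, at 1 week at 92.9 and at 5 weeks at 84.2.

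Promoter calls of 22 other factors of the endocrine network were made for 19 genes in WT, against 17 at 1 week and 20 after 5 weeks. Pdx1, the regulator of pancreas formation and insulin transcription, stood at percentiles 81.1, 94.9 and 84.8. Nkx6-1, a homeodomain factor of beta cells, stood at 75.9, 89.5 and 94.6, and Pax6, needed in all endocrine cells, at 95.1, 96.2 and 98.1. These 3 had their lowest percentile in WT, as the members did. Neurog3, the factor of endocrine progenitors, went the other way at 1 week, with 59.97, 22.0 and 70.7. The calls differed for 4 genes. Nkx2-2 and Onecut1 had a promoter peak only at 5 weeks, at percentiles 72.5 and 55.2. Foxa1 had one only in WT, at percentile 3.18, and Sox9, a duct and progenitor factor, had one in WT and at 5 weeks, at 26.7 and 57.5. Pax4 had none in any list.

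Peaks in the windows also fell on promoters of neighbouring genes. Rhpn1 in the Mafa window, Cerkl in the Neurod1 window, and Pcmtd2 and Polr3k in the Myt1 window had a promoter peak in all 3 lists. The Polr3k peak was among the strongest, at percentiles 99.3, 99.5 and 99.3. In the Insm1 window a promoter peak of 4930529M08Rik was called at 5 weeks only, at percentile 65.6, while that gene also had a promoter peak outside the window in all 3 lists. Gprc6a and 4933411G06Rik in the Rfx6 window and Oprl1 in the Myt1 window had none. A distal peak lying within a neighbour, such as those of the Mafa window within Zc3h3, may belong to either gene, and the peak lists do not tell which.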

How the data were processed

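ATAC-seq reads from 3 libraries (1 per group) were mapped by the authors to mm9 with Bowtie 1.0.0, keeping uniquely placed reads, and broad peaks were called per library with MACS2 2.1.1. bcl2fastq 2.17.1.14 is also named in the submitters' processing notes. Whether a control library was used, duplicates were removed or reads were shifted to the insertion site was not stated. The deposited lists give each peak's fold over local background (a ratio), its -log10 p-value and -log10 q-value, averaged over the peak, and a score that was not read.

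Peaks of each list were assigned to genes of the GENCODE annotation on NCBIM37, the build of mm9. For Glis3 the longer of 2 gene models was used. The promoter window ran from 1000 bp before to 100 bp after any start of a protein-coding transcript. Peaks were shared from 1 bp of overlap. Values of column 9 (-log10 q) were compared by percentile within a list, since the lists were called at different depths. The lowest -log10 q was 1.02, 1.01 and 1.01, and 2 peaks per list on other chromosomes were left out. Read totals are not part of peak lists. Depth was taken as the background floor, 3.65, 6.45 and 9.37 reads in WT, 1 week and 5 weeks, recovered from fold and p with equal read extension assumed. The scripts were tested on simulated data. Python 3.11.15, numpy 2.4.6, pandas 2.3.3, scipy 1.17.1, statsmodels 0.14.6 and matplotlib 3.10.9 were used.

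The members, gene lists and motifs were chosen with earlier results of these data known. Named were the 6 members, other factors with differing promoter calls along with Pdx1, Nkx6-1, Pax6 and Neurog3, neighbours with a promoter in a window, the gene nearest in promoter percentiles, and, per member, the distal region highest in WT among those called in all lists and the highest of those called in 1 group only. The second Glis3 sequence, the Rfx6 start sequence and the named upstream Neurod1 regions were added after values were seen. Of the items this rule names, 1 gene and 1 region are not reported here. Alternatives were stricter q limits, lists of equal length, scaling to the WT background, other flanks, overlaps and promoter windows. For 204 regions of all gene windows the 3 peaks had no common stretch, and these were left out of the motif counts.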

Additional observations from a re-analysis of the deposited data

Results flagged for a closer look

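In 4 of the 6 windows the difference from WT had opposite signs at the 2 times. Mafa had -6 peaks relative to WT at 1 week and 3 at 5 weeks, Neurod1 -3 and 2, Glis3 -12 and 3, and Myt1 -6 and 3. The difference between the times was not tested, since each group had 1 library, and both comparisons share the WT library. Opposite signs of this kind were found in 28.2% of the 19372 gene windows with a WT peak.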

How the results depend on the processing

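No paired analysis was possible because each group had 1 library. When the -log10 q had to reach 3, the windows held 53 WT peaks, the differences from WT were -3 at 1 week and 35 at 5 weeks, and 69.8% and 96.2% of WT peaks were found again. At 5 or more, the windows held 32, 32 and 65 peaks (WT, 1 week, 5 weeks), with differences of 0 and 33. Then 16 distal regions were shared, 2 members and 10 other factors had a promoter call at 1 week, and Glis3 had 3 more peaks at 1 week than in WT. With Taf4 KO lists of the same length as the WT list, the difference at 5 weeks was 2, with -1 at Mafa and -3 at Glis3, and 76.2% of WT peaks were found at 5 weeks. Scaled to the WT background it was -6, with -3 at Mafa and -5 at Glis3, and 73.8% were found. The difference at 1 week was -29 and -27 under these settings. With 10 kb on each side, the windows held 38 peaks at 1 week and 65 at 5 weeks, with 8 more than WT (-1 at Mafa) and 23 shared distal regions. A reciprocal overlap of 50% left 45.2% and 59.5% of WT peaks found and 23 shared distal regions. With 100 kb on each side, the counts were 114, 90 and 140. Of the other single-gene values, 68 moved and 169 did not. With 1 library per group, an effect of Taf4 and differences between animals or preparations cannot be told apart.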
